A study of Homo sapiens with 12 samples.

Results

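B7 family members and other surface ligands of immune cells were followed by RNAseq in SKBR-3 cells. The 9 genes, among the 20531 listed genes, were VTCN1, CD274, PDCD1LG2, CD276, CD80, PVR, PVRL2, LGALS9 and CD47, taken by gene symbol. No measured value entered that rule, but the genes were chosen with earlier results of these data known. SKBR-3 is an established HER2-amplified, ER-negative breast carcinoma cell line. Cells in every group received an siRNA pool, either non-targeting (NT) or against FOXA1, a pioneer transcription factor of luminal cells that opens closed chromatin. They were then kept for 24 h in DMSO, the drug solvent, or in 300 nM lapatinib, an inhibitor of the HER2 and EGFR kinases. This gave 4 groups of 3 libraries: NT siRNA with DMSO (the control), NT siRNA with lapatinib, FOXA1 siRNA with DMSO, and FOXA1 siRNA with lapatinib. The labels give 48 h of siRNA before the drug, whereas the methods of the study give 24 h. The model is 1 cell line in monoculture with 1 siRNA pool per target, and nothing states that replicates came from separate cultures, so p-values measure only the spread between these libraries, which may be technical.

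T cells are switched on by antigen together with a costimulatory signal, and B7 family proteins on the presenting or tumor cell adjust that signal. CD80 engages CD28 and CTLA4, CD274 (PD-L1) and PDCD1LG2 (PD-L2) engage PD-1 and restrain the T cell, and VTCN1 (B7-H4) and CD276 (B7-H3) inhibit T cells through receptors that are less well defined. PVR (CD155) and PVRL2 (CD112, now named NECTIN2) are nectin family adhesion molecules that engage the inhibitory receptor TIGIT and the activating receptor CD226, and PVRL2 also engages the inhibitory receptor PVRIG. LGALS9 (galectin-9) is a sugar-binding protein and a ligand of TIM-3, and CD47 is the "do not eat me" signal read by SIRP-alpha on macrophages. VTCN1 is known as a marker of breast and other female reproductive tract epithelia and carcinomas.

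The ligand genes lie on 6 chromosomes. In GRCh38.p14 coordinates of RefSeq, VTCN1 spans chr1:117143587-117210927, CD276 spans chr15:73683944-73714514, LGALS9 spans chr17:27631188-27649560, CD80 spans chr3:119524293-119559614 and CD47 spans chr3:108043091-108091031. CD274 (chr9:5450542-5470554) and PDCD1LG2 (chr9:5510531-5571282) lie near each other, and PVR (chr19:44643910-44666162) and PVRL2 (chr19:44846297-44889223) lie on the same chromosome. In GENCODE v44, exons of VTCN1, CD274, PDCD1LG2, CD276 and CD47 overlap no exon of another gene. TIMMDC1, on the other strand, covers 24.8% of the exon bases of CD80, and an antisense lncRNA covers 3.42% of those of PVRL2. Genes on the same strand overlap parts of PVR and LGALS9, up to 19.4% of the exon bases of PVR.

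The 250 bases upstream of the transcription start are shown for 3 ligands that responded differently to the same perturbations: VTCN1 for its changes with both, CD274 for its fall with lapatinib and CD47 for its small changes. They come from RefSeq (GRCh38.p14), which had a promoter for 8 of the 9 genes, and run 5′ to 3′ along the strand of the gene. Searched on both strands were the forkhead motifs GTAAACA and GTCAACA, the NF-kB motif GGGACT followed at once by TTCC, the STAT motif TTCNNNGAA, and the interferon response motif, GAAA repeated after any 2 bases. Capitals mark the matches, and bases are counted back from -1 next to the start.
VTCN1 (chr1:117210928-117211177, minus strand): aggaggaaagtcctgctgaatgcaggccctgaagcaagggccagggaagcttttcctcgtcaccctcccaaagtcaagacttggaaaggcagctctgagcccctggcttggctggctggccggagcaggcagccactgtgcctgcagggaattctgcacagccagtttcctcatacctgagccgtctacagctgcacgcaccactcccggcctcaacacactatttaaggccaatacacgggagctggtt
CD274 (chr9:5450292-5450541, plus strand): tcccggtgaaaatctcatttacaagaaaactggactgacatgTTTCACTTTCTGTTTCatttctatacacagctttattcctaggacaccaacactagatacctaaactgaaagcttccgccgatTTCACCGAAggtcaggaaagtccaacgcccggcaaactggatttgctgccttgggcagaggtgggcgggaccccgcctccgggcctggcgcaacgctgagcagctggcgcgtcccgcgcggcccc
CD47 (chr3:108091032-108091281, minus strand): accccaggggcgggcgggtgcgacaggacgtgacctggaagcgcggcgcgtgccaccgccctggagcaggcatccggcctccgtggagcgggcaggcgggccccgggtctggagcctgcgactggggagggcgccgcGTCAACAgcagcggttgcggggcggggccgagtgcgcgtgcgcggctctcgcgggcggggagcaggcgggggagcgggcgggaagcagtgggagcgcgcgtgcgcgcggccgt

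The VTCN1 window held none of the 5 motifs. The CD274 window held 2 overlapping matches to the repeated GAAA on the strand opposite to the one printed, from -208 to -199 and from -202 to -193, and 1 match to TTCNNNGAA from -125 to -117. The CD47 window held 1 match to GTCAACA, from -113 to -107. None of the other ligands with a promoter entry held a match. Of all 35097 promoter windows of this length, 2.98% held GTAAACA, 1.95% GTCAACA, 0.18% the NF-kB motif, 6.56% TTCNNNGAA and 3.02% the repeated GAAA. These matches describe the letters in this window only.

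Libraries held between 25749578 and 32271850 expected counts, which are estimated read numbers per gene. The FOXA1 siRNA acted on its target: FOXA1 stood at 8399 to 8748 normalized counts in the control and 12022 to 13106 with lapatinib, but at 1165 to 1571 and 1641 to 2376 under FOXA1 siRNA without and with the drug. Normalized counts are counts scaled to one common library size. Of 9 epithelial, luminal or HER2 region genes, 8 were abundant, while the epithelial cadherin CDH1 stayed at or under 0.25 TPM. The estrogen and progesterone receptor genes together stayed at or under 0.98 TPM. TPM, a count of transcripts scaled to a fixed total, is a level per transcript length. The 10 lymphocyte markers summed to 0.63 to 1.98 TPM, with PTPRC, the pan-leukocyte gene, at 5 counts or fewer and MS4A1 at 0 in every library. The 6 myeloid markers summed to 18.9 to 31.7 TPM in the control, 31.9 to 42.4 with lapatinib, 29.7 to 38.3 with FOXA1 siRNA and 38.7 to 50.8 with both, nearly all from CD68 and CSF1R, while CD14, ITGAM, FCGR3A and LYZ stayed at or under 22 counts. The part of the myeloid markers in the results on the ligands was not tested, and in bulk RNA fewer cells of a type and less RNA per cell cannot be told apart.

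VTCN1 was the most abundant ligand transcript per length in 3 of the 4 groups. It averaged 245 ± 10.7 TPM (SD, n = 3) in the control, 552 ± 71.6 TPM with lapatinib, 102 ± 4.13 TPM with FOXA1 siRNA and 143 ± 5.77 TPM with both. By mean TPM it ranked 606 of 20531 genes in the control, 202 with lapatinib, 1667 with FOXA1 siRNA and 1044 with both. The nectin PVRL2 followed, at 133 ± 7.62, 144 ± 3.14, 103 ± 8.26 and 104 ± 5.36 TPM in the same order of groups. In FOXA1-depleted cells in DMSO the VTCN1 and PVRL2 ranges overlapped, so these levels did not differ beyond their spread.

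PVR came next in every group, at 55.9 ± 0.925, 27.9 ± 1.30, 52.0 ± 3.21 and 32.4 ± 2.79 TPM. CD47 lay between 14.3 and 17.8 TPM as a group mean, and CD276 between 5.04 and 13.9 TPM. CD47 and CD276 overlapped in both DMSO groups and were apart, with CD47 higher, in both lapatinib groups. LGALS9 and CD274 were the lowest ligands that reached the test, with group means of 1.53 to 5.21 TPM for LGALS9 and 1.16 to 2.44 TPM for CD274. CD274 lay above LGALS9 in the control and LGALS9 above CD274 in both lapatinib groups, the ranges of LGALS9 and CD274 overlapped with FOXA1 siRNA alone, and those of LGALS9 and CD276 overlapped with both treatments.

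**Figure D1:**
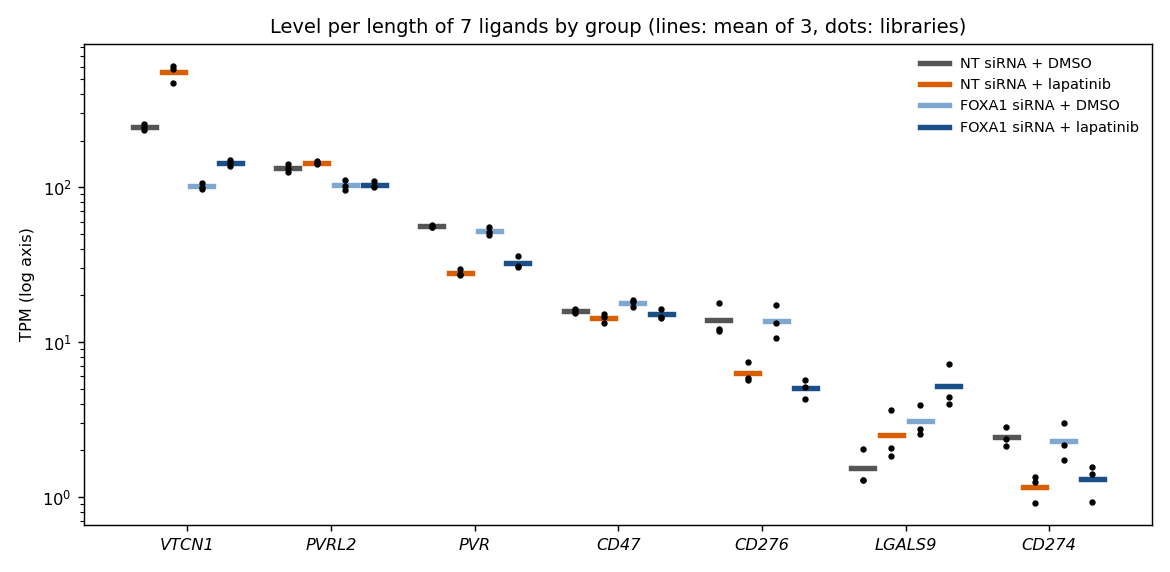
TPM, a level per transcript length, on a log axis for the 7 ligands that reached the test, with dots for the 3 libraries of a group and a line for their mean. VTCN1 was highest except with FOXA1 siRNA and DMSO, where its range overlapped that of PVRL2, and the means of CD274 and LGALS9 were lowest except with FOXA1 siRNA and lapatinib, where the CD276 mean lay between them.

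CD80 and PDCD1LG2 were not detectable at a usable depth. CD80, the T cell costimulator of presenting cells, had at most 1 count in any library and 0 in 7 of 12. PDCD1LG2, the other PD-1 ligand, had at most 5 counts and 0 in 5 of 12. With 3 counts as the limit that a count of 0 allows, CD80 stayed under it everywhere and PDCD1LG2 reached it in 2 libraries, both with FOXA1 siRNA and lapatinib. Neither was tested, and such limits cover counting error only. The other 7 ligands had at least 22 counts in every library and were tested in all comparisons.

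The 9 genes summed to 467 ± 11.4 TPM (SD, n = 3) in the control, 748 ± 66.3 TPM with lapatinib, 294 ± 18.1 TPM with FOXA1 siRNA and 306 ± 6.81 TPM with both. VTCN1 alone held 52.3 ± 2.03% of this sum in the control and 73.6 ± 3.18% with lapatinib. It held 34.6 ± 0.734% with FOXA1 siRNA and 46.8 ± 1.90% with both. The ratio of VTCN1 to CD274 in TPM was 102 ± 16.1 in the control and 479 ± 34.3 with lapatinib, and 46.8 ± 14.3 and 117 ± 34.4 in the DMSO and lapatinib groups of FOXA1-depleted cells. Per length, most of the ligand transcript came from VTCN1, PVRL2 and PVR in every group, and CD274 was a minor part.

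**Figure D2:**
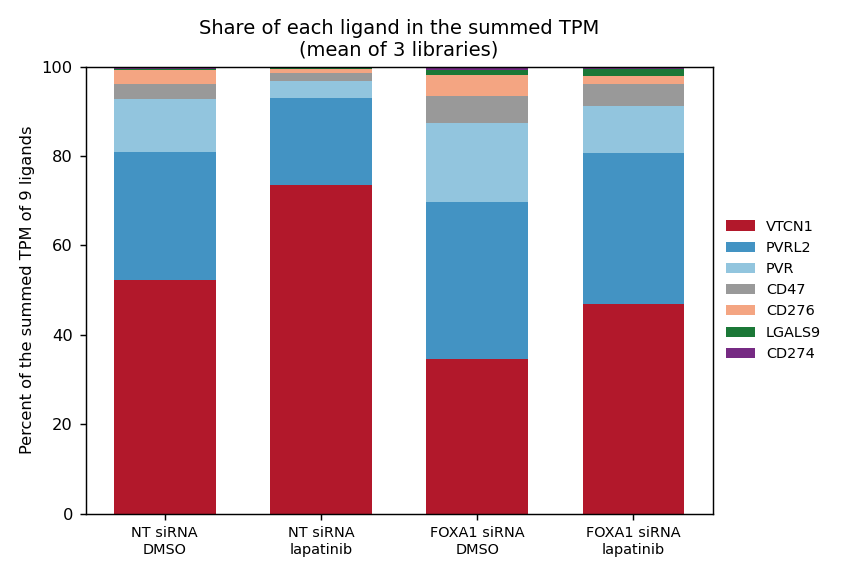
Stacked bars of the percent of the summed TPM of the 9 ligand genes that each ligand held, as the mean of 3 libraries per group (CD80 and PDCD1LG2 are too low to see). The VTCN1 share was 73.6% with NT siRNA and lapatinib and 34.6% with FOXA1 siRNA and DMSO.

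The first comparison asked how the ligands respond to HER2 inhibition with FOXA1 intact. With lapatinib in NT siRNA cells VTCN1 rose, while CD274, CD276 and PVR fell, each with a log2 fold change near 1 in size. PVRL2, LGALS9 and CD47 did not pass the test. The 1 ligand that rose and 3 that fell of 7 tested stand beside 59.7% of all genes called in this comparison, 30.5% higher and 29.2% lower, so the share of ligands called was close to that of genes at large. When the change also had to reach 1 on the log2 scale, 3 of 7 ligands were called, VTCN1 among them, beside 13.8% of genes. The median log2 fold change was -0.11 over the 7 ligands and 0.03 over all genes tested.

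VTCN1 had 9799.8, 9829.6 and 10458 normalized counts in the 3 control libraries and 23893, 19144 and 25586 with lapatinib. All lapatinib libraries lay above all controls, and replicate 2 was the lowest of the treated libraries. The log2 fold change was 1.22 ± 0.10 (SE), a 2.33-fold rise (adjusted p = 2.05e-05; adjusted p-values are from the quasi-likelihood F test of edgeR, corrected over all genes by Benjamini-Hochberg). The study placed VTCN1 in a gene set chosen on these libraries for a rise with lapatinib and a fall with FOXA1 siRNA. That choice also used a log2 fold change limit of 1 in size. The VTCN1 calls in those 2 comparisons are therefore not independent evidence of direction, nor is its place in the counts past that limit. Libraries used for that choice also enter the other comparisons and the interaction, so the VTCN1 values there are not free of it.

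CD274, encoding PD-L1, had 68.7, 49.1 and 55.5 normalized counts in the control and 28.5, 21.6 and 30.6 with lapatinib. The groups did not overlap, at a depth of 22 to 73 counts per library over all groups. CD274 fell by 1.07 on the log2 scale, 2.10-fold (SE 0.23, adjusted p = 0.00442). CD276 (B7-H3) had 567, 816 and 514 normalized counts in the control and 265, 359 and 258 with lapatinib, again without overlap and with replicate 2 highest in both groups. This was a log2 fold change of -1.07 ± 0.20 (SE) (adjusted p = 0.00184).

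PVR, the main TIGIT ligand, was the most tightly measured of the ligands that fell, with 4944, 5047 and 4961 normalized counts in the control and 2580.2, 2362 and 2418 with lapatinib. The groups lay far apart relative to their spread. The fitted log2 fold change was -0.99 ± 0.05 (SE) (adjusted p = 3.71e-06). The related PVRL2 had 5368, 5507 and 5014 and 5446, 5578 and 5580.1 normalized counts, and these groups overlapped. On the log2 scale the change was 0.10, with a 95% confidence interval of -0.02 to 0.22 (adjusted p = 0.136). The 2 nectin family ligands of TIGIT therefore had log2 fold changes whose intervals did not overlap, -1.11 to -0.87 for PVR.

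LGALS9 had 34.4, 55.1 and 34.4 normalized counts in the control and 55.8, 98.2 and 46.9 with lapatinib, and replicate 2 was the highest library of both groups, which overlapped. Its log2 fold change was 0.74 ± 0.33 (SE) (adjusted p = 0.0853), and in a fit that compares same-numbered libraries, with replicates as blocks, the adjusted p was 0.0107. It passed the threshold without control replicate 2 (log2 fold change 0.97, adjusted p = 0.0461) or lapatinib replicate 3 (0.94, 0.0475). Without lapatinib replicate 2 the log2 fold change was 0.35. CD47 had 1434, 1295 and 1349.8 normalized counts in the control and 1249, 1286 and 1162 with lapatinib. The CD47 groups did not overlap, as for 5 of the 7 ligands beside 66.1% of all genes, but its log2 fold change of -0.11 did not pass (adjusted p = 0.2).

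**Figure D3:**
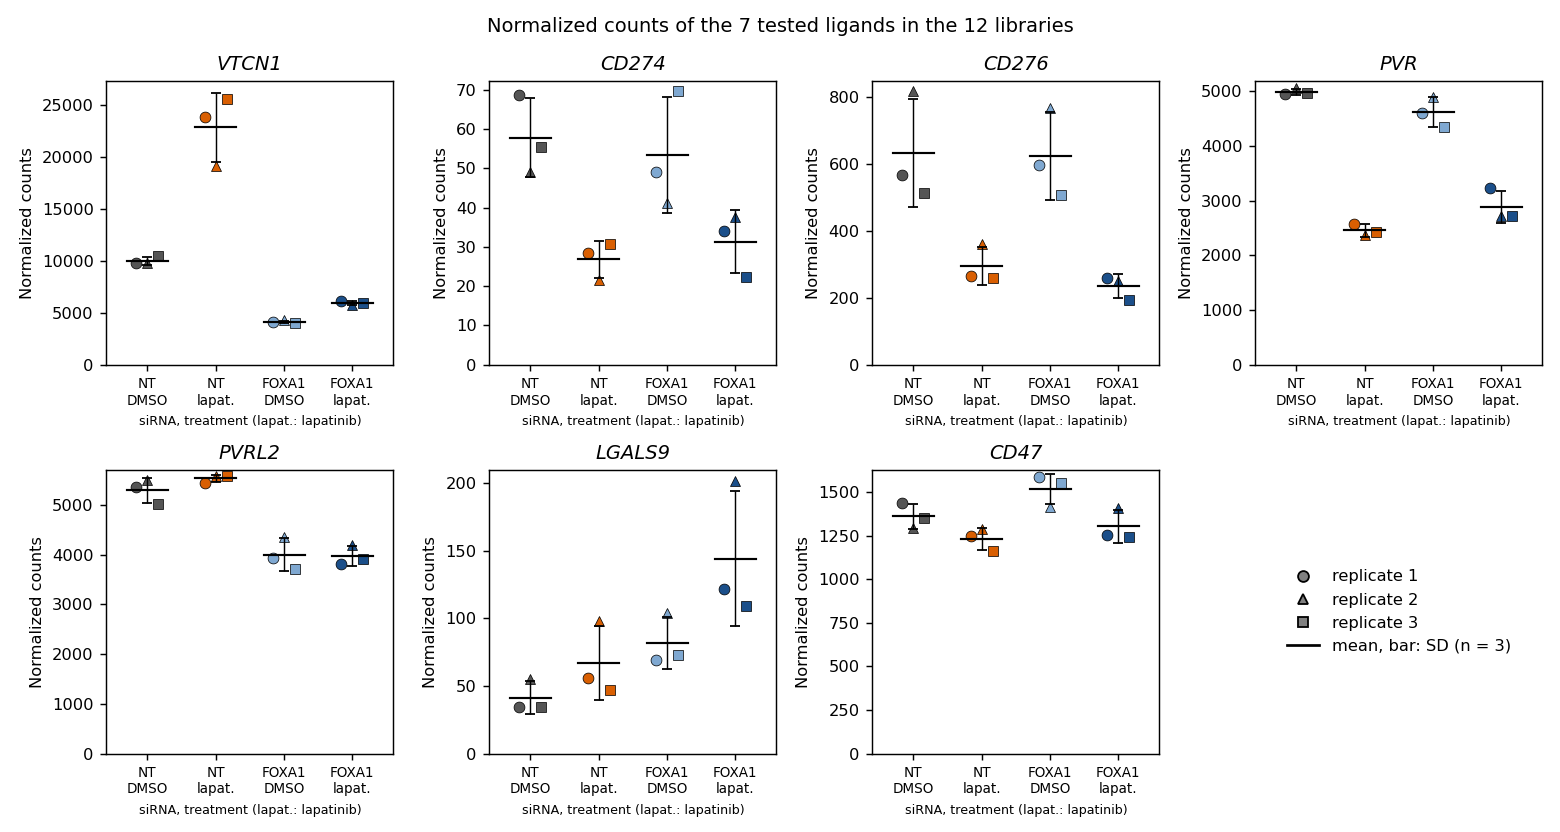
Normalized counts of the 7 tested ligands in each of the 12 libraries, from 0 on each axis, with a shape for each replicate number and the mean ± SD of 3. VTCN1 was highest with NT siRNA and lapatinib, CD276 and PVR were low in both lapatinib groups, and replicate 2 was the highest LGALS9 library in all 4 groups.

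The next comparison asked what FOXA1 depletion does without drug, and it shares the control libraries with the first. VTCN1 and PVRL2 fell and LGALS9 rose, while CD274, CD276, PVR and CD47 did not pass the test. These 3 calls of 7 stand beside 43.2% of all genes, 21.9% higher and 21.3% lower. Past a log2 fold change of 1 in size VTCN1 alone was called, beside 6.84% of genes, and the study used that limit in choosing VTCN1. The median log2 fold change was -0.10 over the ligands and -0.01 over all genes.

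VTCN1 had 4084, 4278 and 4014 normalized counts with FOXA1 siRNA in DMSO, each under the lowest control of 9799.8. This was a log2 fold change of -1.27 ± 0.05 (SE), so that it fell 2.42-fold (adjusted p = 4.05e-06). PVRL2 had 3941, 4359 and 3707 normalized counts, all under the control libraries. PVRL2 fell by 0.39 on the log2 scale (SE 0.07, adjusted p = 0.00232).

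LGALS9 had 69.2, 104 and 72.6 normalized counts with FOXA1 siRNA in DMSO, all above the control range. The fitted log2 fold change was 1.0 ± 0.26 (SE) (adjusted p = 0.0157). The call was lost without control replicate 1 (0.88, adjusted p = 0.0603) or control replicate 3 (0.88, 0.0599). It held with the replicate block (adjusted p = 0.000358). The near-identical copies LGALS9B and LGALS9C had at most 1 count and 0 counts in any library, so few of the counts assigned to the family lay outside LGALS9.

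CD274 had 49.2, 41.2 and 69.8 and CD276 597, 766 and 506 normalized counts with FOXA1 siRNA in DMSO. Both overlapped the control, with log2 fold changes of -0.11 (95% interval -0.66 to 0.45, adjusted p = 0.755) and -0.01 (-0.48 to 0.46, 0.973). PVR had 4602, 4899.9 and 4350.3 normalized counts and a log2 fold change of -0.10 (adjusted p = 0.143, or 0.0253 with the replicate block). CD47 had 1583, 1417 and 1551 normalized counts and a log2 fold change of 0.17 (adjusted p = 0.0694, or 0.00576 with the block). For PVR and CD47 the block moved the call across the threshold, as did leaving out FOXA1 siRNA and DMSO replicate 2 (-0.15, adjusted p = 0.0369 for PVR, and 0.21, 0.0357 for CD47). The groups did not overlap for VTCN1, PVR, PVRL2 and LGALS9, 4 of 7 ligands beside 54.2% of all genes.

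Under lapatinib, FOXA1 depletion lowered VTCN1 and PVRL2 and raised LGALS9 and, at the threshold, PVR. VTCN1 had 6167, 5716 and 5969.6 normalized counts with both, against 19144 to 25586 with NT siRNA and lapatinib. On the log2 scale the change was -1.96 ± 0.10 (SE), so that it fell 3.89-fold (adjusted p = 7.63e-06). PVRL2 also fell, with 3814, 4204 and 3903 normalized counts and a log2 fold change of -0.49 ± 0.05 (SE) (adjusted p = 0.000133). Of the 7 ligands 2 rose and 2 fell, beside 44.9% of all genes called, 22.7% higher and 22.2% lower, and VTCN1 and LGALS9 passed a log2 fold change of 1 in size, beside 8.41% of genes. The median log2 fold change was 0.06 over the ligands and -0.01 over all genes.

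LGALS9 rose under lapatinib as well, with 122, 201 and 109 normalized counts against 55.8, 98.2 and 46.9 with NT siRNA. Its log2 fold change was 1.08 ± 0.33 (SE) (adjusted p = 0.0265). The call was lost without NT siRNA and lapatinib replicate 1 (0.97, adjusted p = 0.0858) or 3 (0.87, 0.0868), or FOXA1 siRNA and lapatinib replicate 2 (0.76, 0.0826). It held with the replicate block (adjusted p = 1.64e-05). The groups did not overlap for VTCN1, PVR, PVRL2 and LGALS9, which is 4 of 7 beside 55.5% of all genes.

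PVR had 3227, 2714 and 2713 normalized counts with both, all above the 2580.2 of the highest library with NT siRNA and lapatinib. Its rise by a log2 fold change of 0.22 ± 0.08 (SE) lay at the threshold (adjusted p = 0.0499, or 0.000627 with the replicate block). Without the block, the rise missed the threshold with RLE scaling (adjusted p = 0.0503) or without NT siRNA and lapatinib replicate 1 (0.26, 0.0582), 2 (0.19, 0.104) or 3 (0.21, 0.129), or FOXA1 siRNA and lapatinib replicate 1 (0.12, 0.151) or 3 (0.26, 0.0529).

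CD276 had 260.2, 249 and 194 and CD274 34.1, 37.5 and 22.4 normalized counts with both treatments. The log2 fold change of CD276 against NT siRNA and lapatinib was -0.34 (95% interval -0.73 to 0.04, adjusted p = 0.125, or 0.0125 with the block). That of CD274 was 0.21 (-0.41 to 0.83, adjusted p = 0.557). CD47, with 1255, 1410.3 and 1242 normalized counts, had a log2 fold change of 0.06 (-0.10 to 0.23, adjusted p = 0.499). Both PD-L1 and CD47 overlapped between the siRNA groups.

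**Figure D4:**
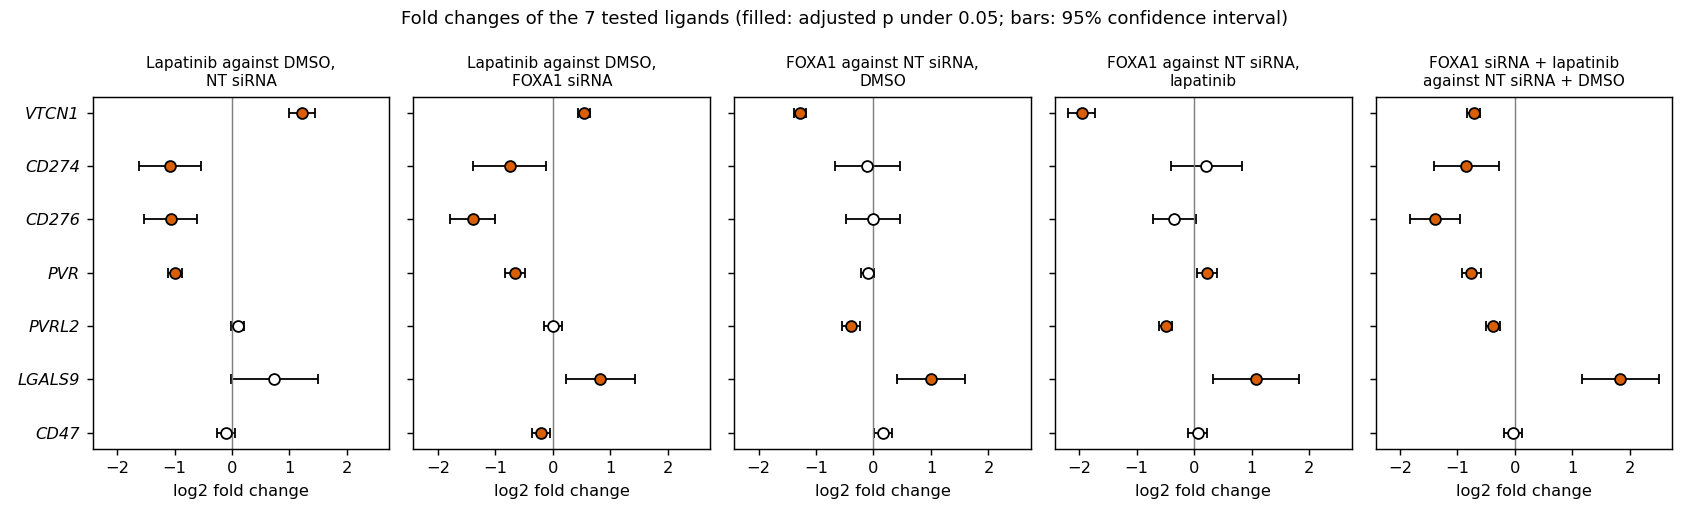
Log2 fold changes of the 7 tested ligands in the 5 comparisons of group pairs, with 95% confidence intervals as bars and filled points for an adjusted p under 0.05. VTCN1 rose with lapatinib under both siRNA pools and fell with FOXA1 siRNA in DMSO and in lapatinib, CD276 and PVR fell with lapatinib under both pools, and LGALS9 lay above 0 in every panel, without passing the test for lapatinib with NT siRNA.

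The lapatinib response was also measured in FOXA1-depleted cells. Of 7 ligands 2 rose and 4 fell, beside 58.2% of all genes called, 29% higher and 29.1% lower, but only CD276 passed a log2 fold change of 1 in size, beside 10.1% of genes. The groups of 6 ligands were apart, beside 65.1% of genes, and the median log2 fold change was -0.20 over the ligands and 0.01 over all genes. VTCN1 rose from 4125 ± 137 to 5951 ± 226 normalized counts (SD, n = 3), a log2 fold change of 0.54 ± 0.05 (SE) and 1.46-fold (adjusted p = 3.13e-05). CD276 fell from 623 ± 132 to 234 ± 35.6 (-1.39 ± 0.17 (SE), adjusted p = 0.000201), and PVR from 4617 ± 275 to 2885 ± 296 (-0.66 ± 0.08 (SE), adjusted p = 0.000153). PVRL2 had a log2 fold change of 0.01 (95% interval -0.14 to 0.16, adjusted p = 0.948).

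The other 3 calls in FOXA1-depleted cells kept their direction but missed the threshold without some of the libraries, and passed it with the replicate block (adjusted p = 0.000356 for LGALS9, 0.0409 for CD274 and 0.0223 for CD47 by edgeR's quasi-likelihood test). LGALS9 rose (0.83 ± 0.26 (SE), adjusted p = 0.0249), but missed the threshold without DMSO replicate 1 (0.73, 0.0821) or 3 (0.75, 0.0767) or lapatinib replicate 2 (0.52, 0.067). CD274 fell (-0.75 ± 0.28 (SE), adjusted p = 0.0451), but had an adjusted p of 0.0651 with DESeq2. Without DMSO replicate 1 or 3, CD274 had log2 fold changes of -0.80 (adjusted p = 0.0739) and -0.50 (0.162), and without lapatinib replicate 1 or 3, -0.80 (0.0819) and -0.55 (0.147). CD47 fell slightly (-0.20 ± 0.07 (SE), adjusted p = 0.0356) and failed the threshold without replicate 1 or 3 of either group, with log2 fold changes of -0.17 and -0.19 without the DMSO libraries and -0.17 and -0.16 without the lapatinib libraries.

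Whether the lapatinib response differed between the siRNA pools was tested as an interaction over all 12 libraries. VTCN1 was the only ligand called, beside 7.19% of all genes, 3.99% with a positive and 3.2% with a negative difference, with a response 0.66 smaller on the log2 scale in FOXA1-depleted cells (difference -0.66 ± 0.12 (SE), adjusted p = 0.00616). Between same-numbered libraries VTCN1 gained 14093, 9314 and 15128 normalized counts with NT siRNA and 2083, 1439 and 1956 with FOXA1 siRNA. The mean gain with FOXA1 siRNA, 1826 ± 341 (SD, n = 3), was 14.2% of that with NT siRNA, 12845 ± 3101. As log2 ratios the same pairs gave 1.29, 0.96 and 1.29 with NT siRNA and 0.59, 0.42 and 0.57 with FOXA1 siRNA, without overlap.

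The PVR response was 0.34 less negative in FOXA1-depleted cells and just missed the threshold (SE 0.10, adjusted p = 0.0515). It passed with the replicate block (0.00952), with DESeq2 (0.0188), and without replicate 2 of FOXA1 siRNA and DMSO (0.38, 0.042) or of FOXA1 siRNA and lapatinib (0.38, 0.0428). For CD274 the difference was 0.34 with a 95% interval of -0.46 to 1.14, for CD276 -0.32 (-0.94 to 0.31) and for LGALS9 0.10 (-0.90 to 1.11). The intervals of CD276 and LGALS9 hold the VTCN1 difference of -0.66. That of CD274 holds a difference of this size only in the opposite direction. For PVRL2 the difference was -0.08 (-0.26 to 0.11) and for CD47 -0.08 (-0.30 to 0.13).

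**Figure D5:**
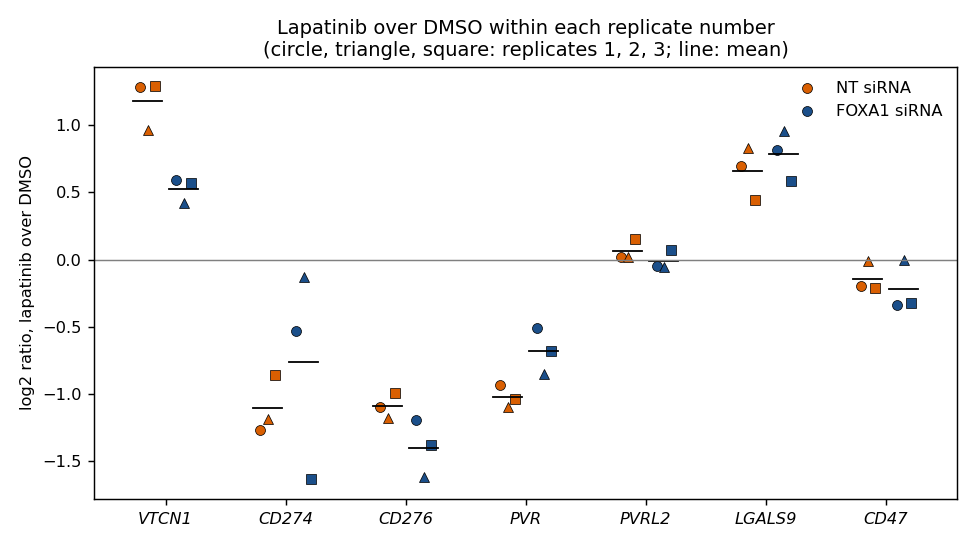
Log2 ratio of normalized counts, lapatinib over DMSO, between libraries of the same replicate number, for NT siRNA and FOXA1 siRNA, with a line for the mean of 3. The VTCN1 ratios were 0.96 to 1.29 with NT siRNA and 0.42 to 0.59 with FOXA1 siRNA, whereas those of CD274 spread widely with FOXA1 siRNA.

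Cells with both FOXA1 siRNA and lapatinib were set against the control. LGALS9 rose and VTCN1, CD274, CD276, PVR and PVRL2 fell, 6 of 7 ligands beside 66.4% of all genes called, 33.9% higher and 32.5% lower, with a median log2 fold change of -0.72 over the ligands and 0.02 over all genes. Past a log2 fold change of 1 in size, 2 of 7 were called beside 18.6% of genes, and 6 ligands did not overlap beside 71.3%. LGALS9 went from 41.3 ± 12.0 to 144 ± 49.9 normalized counts (SD, n = 3), a log2 fold change of 1.84 ± 0.29 (SE) (adjusted p = 0.000618), and CD276 changed by -1.40 ± 0.19 (SE) (adjusted p = 0.000247). VTCN1 ended at 5951 ± 226 against 10029 ± 371 normalized counts in the control (-0.72 ± 0.05 (SE), adjusted p = 5.67e-06).

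The remaining ligands lay below the control or near it. PVR changed by -0.76 ± 0.07 (SE) on the log2 scale (adjusted p = 3.03e-05) and PVRL2 by -0.38 ± 0.06 (SE) (adjusted p = 0.000402). CD274 changed by -0.85 ± 0.25 (SE) (adjusted p = 0.0146), a call lost without control replicate 1 (-0.72, 0.0541) or replicate 3 with both treatments (-0.66, 0.0502). CD47 had a log2 fold change of -0.03 (95% interval -0.19 to 0.13, adjusted p = 0.719).

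The genes whose pattern over the 12 libraries was most like that of VTCN1 were SOCS2 (Pearson r = 0.996), ABHD12 (0.993), RALGPS2 (0.99), C18orf1 (0.989) and RGMB (0.989), out of 10812 genes compared. These r values are descriptions, since the 12 points fall into the 4 groups that they share. SOCS2, a cytokine signaling inhibitor, had 132 ± 16, 584 ± 117, 30.2 ± 6.35 and 51.0 ± 3.29 normalized counts (SD, n = 3) in the control, with lapatinib, with FOXA1 siRNA and with both. Like VTCN1, all 5 had their highest mean with NT siRNA and lapatinib.

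Replicate number 2 stood apart over genes at large, and not for some ligands only. Over 12170 genes, deviations from the group mean were compared between libraries of different groups. Replicate 2 had r of -0.456 to -0.215 with other numbers, and replicates 1 and 3 had r of 0.0219 to 0.196 with each other. Among the ligands, replicate 2 held the highest LGALS9 library in all 4 groups and the highest CD276 library in 3 of 4. IRF1, the interferon-induced transcription factor, had 367, 518 and 302 normalized counts in control replicates 1 to 3, 547, 981 and 486 with lapatinib, 381, 505 and 364 with FOXA1 siRNA and 794, 1127 and 648 with both. Replicate 2 was thus the highest IRF1 library in all 4 groups as well, and the part of IRF1 in the LGALS9 values was not tested. This was not particular to IRF1. Of the genes of the lists below, replicate 2 was highest in all 4 groups also for C10orf54 and CD24, among others, but in 1 group for PVRL4 and CMTM6. The fits with the replicate block allow for the replicate number.

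Receptors and related ligands were read from lists of known genes. Of 13 receptors and other binding partners of the ligands, 10 stayed under 10 counts in every library, among them PDCD1 and TIGIT with at most 1 count, CTLA4 and CD226 with 0 and SIRPA with at most 4. THBS1 (thrombospondin-1), a secreted partner of CD47, was abundant, and rose with lapatinib in NT siRNA cells from 5607 ± 332 to 9709 ± 1125 normalized counts (log2 fold change 0.83, adjusted p = 7.55e-05) and with FOXA1 siRNA in DMSO to 10117 ± 572 (0.86, 2.93e-05). Of the receptor list, 2 of 2 tested genes rose with lapatinib (median log2 fold change 0.95), beside 30.5% of all genes that rose. With FOXA1 siRNA in DMSO 1 of them rose and 1 fell, beside 21.9% of all genes that rose and 21.3% that fell.

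Of 14 other B7 and butyrophilin genes in the files, 7 were under 10 counts everywhere, and of the 7 tested 2 rose and 1 fell with lapatinib in NT siRNA cells (median log2 fold change 0.40), beside 30.5% of all genes that rose and 29.2% that fell. C10orf54, which encodes the inhibitory B7 relative VISTA, rose from 141, 178 and 124 to 456, 695 and 453 normalized counts (log2 fold change 1.89, adjusted p = 9.65e-05). BTN3A2, a butyrophilin of the gamma-delta T cell ligand family, rose by 0.93 on the log2 scale (adjusted p = 0.000514), and ICOSLG, the ligand of the costimulator ICOS, fell by 0.29 (adjusted p = 0.0198). With FOXA1 siRNA 1 rose and 2 fell in DMSO, beside 43.2% of all genes called, and 3 fell in lapatinib, beside 22.2% that fell. In lapatinib C10orf54 fell by 0.63 (adjusted p = 0.0369) and ICOSLG by 0.33 (adjusted p = 0.0163).

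All 5 tested nectins and nectin-like molecules besides the ligands were called with lapatinib, 1 higher and 4 lower, with a median log2 fold change of -0.50, beside 59.7% of all genes called, 30.5% higher and 29.2% lower. PVRL4 (nectin-4), the target of an antibody-drug conjugate, rose from 1901 ± 95.7 to 3972 ± 182 normalized counts (log2 fold change 1.10, adjusted p = 4.41e-06). PVRL1 (nectin-1) fell by 0.58 on the log2 scale (adjusted p = 4.36e-05). With FOXA1 siRNA in DMSO PVRL4 rose by 0.47 (adjusted p = 0.000575) and PVRL1 and CADM4 were among 3 of 5 that fell, by 0.61 and 1.01 (adjusted p = 0.000121 and 0.000567), beside 21.3% of all genes that fell. Under lapatinib PVR and PVRL1 therefore fell while PVRL4 rose.

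Of 8 tested inhibitory or self-recognition ligands outside the 9 genes, 4 rose and none fell with lapatinib in NT siRNA cells (median log2 fold change 0.38), beside 30.5% of all genes that rose. CD55, a complement decay factor, rose from 1489.8 ± 42.6 to 4984 ± 205 normalized counts (1.78, adjusted p = 1.27e-06), and CD24, another "do not eat me" signal, by 0.74 (adjusted p = 0.000169). CD24 had 34309 ± 4106 normalized counts in the control. With FOXA1 siRNA in DMSO 4 of 8 rose, CD24 by 0.36 and CD55 by 0.28 (adjusted p = 0.0124 and 0.00899), beside 21.9% of all genes that rose. Of 5 tested ligands of the activating receptor NKG2D, 1 rose and 2 fell with lapatinib (median log2 fold change -0.64), 3 of 5 called beside 59.7% of all genes, with log2 fold changes of 1.14 for ULBP1 (adjusted p = 0.000453) and -0.93 for ULBP3 (adjusted p = 0.00112). With FOXA1 siRNA in DMSO 1 rose and 1 fell, beside 43.2% of all genes called. Of 4 tested costimulatory TNF family genes none was called with lapatinib (median log2 fold change 0.08), beside 59.7% of all genes, and 1 fell with FOXA1 siRNA in DMSO, beside 21.3%.

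Of 13 genes known to induce or stabilize PD-L1, 6 rose and 1 fell with lapatinib in NT siRNA cells (median log2 fold change 0.11), 7 of 13 called beside 59.7% of all genes. IRF1 rose by 0.80 on the log2 scale (adjusted p = 0.0401) and IFNGR2, a chain of the interferon-gamma receptor, by 0.74 (adjusted p = 0.000559). With FOXA1 siRNA in DMSO 2 rose and 2 fell, 4 of 13 beside 43.2% of all genes called. CMTM6, which protects PD-L1 protein from degradation, rose from 1057 ± 68.5 to 2081 ± 127 normalized counts (0.99, adjusted p = 3.65e-05). Of 7 enzymes that modify CD47 and B7 glycoproteins, 4 fell with lapatinib (median log2 fold change -0.33), beside 29.2% of all genes that fell, among them QPCTL, which forms the pyroglutamate of CD47 that SIRP-alpha binds (-0.43, adjusted p = 0.00774), and 1 rose and 3 fell with FOXA1 siRNA in DMSO, beside 21.9% of all genes that rose and 21.3% that fell.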

How the data were processed

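RNAseq libraries of poly(A) RNA from 12 SKBR-3 samples were analyzed, in 4 groups of 3 taken from the labels. The authors deposited, per gene and library, expected counts (estimated read numbers that need not be whole), TPM, FPKM and an upper-quartile normalized signal. The methods name hg38, STAR and Salmon, whereas the deposited columns are those of RSEM and the submitters' processing notes list RSEM, R 3.2.2 and DESeq2 1.12.3. The use of strand in counting is not given in the sources used here, and the labels name both a stranded and an unstranded kit.

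Expected counts were rounded and tested in R 4.3.3 with edgeR 4.0.16 (glmQLFit, glmQLFTest) after TMM scaling, on genes that reached 10 counts in 1 or more libraries of the fit, and p-values were adjusted over all genes tested. Pairs of groups were fitted on their 6 libraries and the interaction on all 12. A gene rose or fell at an adjusted p under 0.05. Normalized counts are counts at the TMM-scaled average library size. Deposited TPM, which summed to 896833 to 939340.2 per library over the genes listed, were used for levels. FPKM and the normalized signal were not used. An exact permutation test of 3 libraries against 3 cannot go below p = 0.1, so none was run. The fits were tested on simulated counts.

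The labels number replicates 1 to 3 in every group. Over 12170 genes, deviations from the group mean were correlated in all 18 pairs of same-numbered libraries from different groups (r = 0.241 to 0.624). On these values the numbers were treated as pairing the libraries in a fit with the replicate as a block. The mean r was -0.184 in 36 pairs of different number. Deviations within a group sum to 0, so positive same-number values make that mean negative, and it is no separate evidence. Among pairs of different number, those that held a replicate 2 were all negative and those of replicates 1 and 3 all positive.

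The 9 ligands, the gene lists and the tests were chosen with earlier results of these data known. All 9 ligands are named, with up to 2 called genes per direction and list that had the largest log2 fold change and a mean of at least 100 normalized counts in 1 of the groups, and the 5 genes with the highest correlation with VTCN1. IRF1 and the genes set next to it by replicate number, beside LGALS9, receptors under 10 counts and marker genes were named after their values were seen. Gene spans are those of RefSeq by Entrez gene ID. Alternatives were RLE and upper-quartile scaling, DESeq2 1.42.0, 2 other filters on low counts, the block, all 12 libraries in one model, stricter thresholds and leaving out each library. Tables and plots were made in Python 3.11.15 (pandas 2.3.3, matplotlib 3.10.9). A gene that the naming rule selected is not reported here.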

Additional observations from a re-analysis of the deposited data

Results flagged for a closer look

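The lapatinib response of VTCN1 differed between the siRNA pools by -0.66 on the log2 scale (FOXA1 siRNA minus NT siRNA, 95% interval -0.92 to -0.41, adjusted p = 0.00616 by edgeR's quasi-likelihood test of the interaction over 12 libraries). It was marked because the difference between the responses itself passed the test. The test shares libraries with the choice of VTCN1 by the study, so the difference is not independent of that choice. With lapatinib VTCN1 rose by 1.22 under the NT pool and 0.54 under the FOXA1 pool, and the rise was present in 3 of 3 same-numbered pairs under each pool. Leaving out each library in turn gave differences from -0.78 to -0.58, with adjusted p no higher than 0.0216.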

How the results depend on the processing

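The calls on VTCN1 kept their direction and side of the threshold in every comparison under every alternative run except a log2 fold change minimum of 1, which VTCN1 did not reach for lapatinib with FOXA1 siRNA, for both against the control or for the interaction. Leaving out each library in turn gave log2 fold changes of 1.14 to 1.34 for lapatinib with NT siRNA, -1.31 to -1.24 for FOXA1 siRNA in DMSO, -2.07 to -1.87 for FOXA1 siRNA in lapatinib, 0.53 to 0.58 for lapatinib with FOXA1 siRNA, -0.76 to -0.69 for both against the control and -0.78 to -0.58 for the interaction. With the replicate block, 2 ligands rose with lapatinib in NT siRNA cells in place of 1, 2 rose with FOXA1 siRNA in DMSO in place of 1, and 1 had a positive interaction in place of 0, as also with DESeq2. The block added LGALS9, CD47 and PVR there, lowered PVR with FOXA1 siRNA in DMSO and CD276 with FOXA1 siRNA in lapatinib, and changed no other call on the ligands. RLE scaling left 1 ligand higher with FOXA1 siRNA in lapatinib in place of 2. At an adjusted p under 0.01, 0 ligands rose with FOXA1 siRNA in DMSO or in lapatinib, and 1 rose and 2 fell with lapatinib in FOXA1-depleted cells. With a log2 fold change of at least 1 as well, 0 rose and 1 fell with FOXA1 siRNA in DMSO, 1 rose and 1 fell in lapatinib, 0 rose and 1 fell with lapatinib in FOXA1-depleted cells, 1 fell with both against the control and 0 had a negative interaction. The cause of these shifts other than the stricter limits was not tested.

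Leaving out 1 library gave 1 to 2 ligands higher and 3 lower with lapatinib in NT siRNA cells, 0 to 2 higher and 2 to 3 lower with FOXA1 siRNA in DMSO, 0 to 1 higher and 2 lower with FOXA1 siRNA in lapatinib, 1 to 2 higher and 2 to 4 lower with lapatinib in FOXA1-depleted cells, 1 higher and 4 to 5 lower with both against the control, and 0 to 1 higher and 1 lower for the interaction. Values that were not called and crossed 0 were CD274 (-0.35 to 0.047) and CD276 (-0.19 to 0.22) with FOXA1 siRNA in DMSO, PVRL2 with lapatinib in FOXA1-depleted cells (-0.045 to 0.068, and -0.0027 with all 12 libraries in one model), CD47 with both against the control (-0.087 to 0.0017) and the LGALS9 interaction (-0.22 to 0.50). By mean TPM VTCN1 held place 1 of the 9 ligands in 3 groups, and places 1 to 2 with FOXA1 siRNA in DMSO. Depth limited CD80 and PDCD1LG2, which were too low to test.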
